A study of Homo sapiens with 4 samples.

Results

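Transcripts of 8 genes of NODAL signalling were followed through single-cell libraries of human embryonic stem cells and of blastoids made from them. The 8 genes were NODAL, GDF3, TDGF1, LEFTY1, LEFTY2, CER1, FOXH1 and SKIL, taken by symbol from the 23364 symbols that the 4 tables list together, and each of the 8 was listed in all 4 tables. The stem cells were KhES1, an established human line grown on Matrigel in mTeSR-1 medium (hESC 1 and hESC 2). For the blastoid samples (blastoid 3 and blastoid 4), KhES1 cells were aggregated in microwells, embedded in a PNIPAAm-β-PEG hydrogel, kept first in DMEM with serum and then in iBlastoid medium. A blastoid is a stem cell aggregate grown to resemble a blastocyst. Both groups are 1 line. The titles of all 4 samples carry day 0 while the names of the blastoid tables carry day 9, so the descriptions decided the groups. Nothing in the labels says that the samples of a group came from separate cultures, so p-values measure only the spread between these samples, which may be technical.

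NODAL is a secreted ligand of the TGF-β family that signals through activin receptors and needs a membrane-anchored co-receptor, TDGF1 (Cripto). GDF3 is a related ligand. The receptors phosphorylate SMAD2 and SMAD3, which act on target genes with SMAD4 and, at many of them, with the DNA-binding protein FOXH1. LEFTY1 and LEFTY2 are secreted inhibitors whose genes are themselves targets of the pathway, so that ligand and inhibitor form a feedback loop. CER1 is a secreted antagonist of NODAL, BMP and WNT ligands, and SKIL (SnoN) is a nuclear repressor that binds SMAD proteins. In cultured human embryonic stem cells this branch of signalling is known for maintaining the pluripotent state, and in the embryo for inducing mesoderm and endoderm.

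Coordinates are those of the GENCODE v29 annotation of GRCh38. LEFTY1 (225886282 to 225911382) and LEFTY2 (225936598 to 225941489) are neighbours on the minus strand of chromosome 1. NODAL lies on the minus strand of chromosome 10 (70432315 to 70447951), GDF3 on the minus strand of chromosome 12 (7689782 to 7695776) and CER1 on the minus strand of chromosome 9 (14719724 to 14722717). TDGF1 (46574534 to 46582463) and SKIL (170357678 to 170396835) are on the plus strand of chromosome 3. The libraries read 3′ ends, so the last 500 bases of a transcript of each gene were searched for 50-base windows that recur in transcripts of other genes. No window of LEFTY2 and no window of NODAL, GDF3, CER1, FOXH1 or SKIL recurred, and 8.20% of the LEFTY1 windows recurred, in the overlapping transcript AL117348.2 and not in LEFTY2. For TDGF1, 57.0% of the windows recurred in its processed pseudogene TDGF1P3, so some TDGF1 reads could have been dropped or shared.

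Promoter sequences of LEFTY1, LEFTY2 and TDGF1 were not in the reference used. The stretches of 250 bases before the start sites of NODAL, GDF3, CER1 and SKIL, genes that were higher in some blastoid cells, are shown. They are from RefSeq (GRCh38.p14), at chr10:70441682-70441931 (minus strand), chr12:7695776-7696025 (minus strand), chr9:14722734-14722983 (minus strand) and chr3:170357465-170357714 (plus strand). Each is written 5′ to 3′, and capitals mark matches to a FOXH1-type core, AATNNACA or its reverse complement TGTNNATT, and to a SMAD-type site, CAGAC or its reverse complement GTCTG.
NODAL: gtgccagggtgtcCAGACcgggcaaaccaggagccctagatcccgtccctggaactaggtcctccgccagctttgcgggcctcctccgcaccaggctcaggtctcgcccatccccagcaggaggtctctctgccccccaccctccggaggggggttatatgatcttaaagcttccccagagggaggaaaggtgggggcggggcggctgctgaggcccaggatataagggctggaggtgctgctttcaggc
GDF3: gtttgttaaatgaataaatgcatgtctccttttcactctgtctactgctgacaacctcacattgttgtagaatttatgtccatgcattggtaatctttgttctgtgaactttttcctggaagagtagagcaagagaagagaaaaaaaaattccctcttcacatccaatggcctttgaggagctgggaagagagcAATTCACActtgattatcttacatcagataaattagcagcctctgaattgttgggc
CER1: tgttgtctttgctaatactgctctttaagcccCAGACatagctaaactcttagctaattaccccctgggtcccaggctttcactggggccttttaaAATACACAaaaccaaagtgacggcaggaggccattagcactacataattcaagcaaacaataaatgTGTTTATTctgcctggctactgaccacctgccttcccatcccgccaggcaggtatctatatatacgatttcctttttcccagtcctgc
SKIL: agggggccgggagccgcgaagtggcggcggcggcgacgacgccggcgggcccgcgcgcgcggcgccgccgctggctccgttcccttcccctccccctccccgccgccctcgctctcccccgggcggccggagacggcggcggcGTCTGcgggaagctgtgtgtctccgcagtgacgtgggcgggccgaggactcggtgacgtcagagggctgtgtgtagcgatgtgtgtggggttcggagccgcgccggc
The GDF3 window held 1 FOXH1-type match and no SMAD-type match, and the CER1 window held 2 and 1. The NODAL and SKIL windows each held 1 SMAD-type match and no FOXH1-type match. Of 35116 promoter windows of the same length, 9.88% held a FOXH1-type match and 38.0% a SMAD-type match. The 2 motifs share no position in these 4 windows. A match is a run of letters and not a measured binding site, and NODAL and GDF3 had no motif in common here. The NODAL window lies inside the GENCODE interval of the gene (70432315 to 70447951), so the RefSeq start used here is not the GENCODE gene start.

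Libraries were made with the Chromium 3′ v3.1 kit, and the deposited values are UMI counts, where a UMI tags 1 captured molecule. Of 19074 barcodes, 9680 had at least 500 genes, and 9607 were kept after 73 doublet calls. The kept cells numbered 2238 in hESC 1, 3175 in hESC 2, 2278 in blastoid 3 and 1916 in blastoid 4, with median depths of 5769, 4996, 6207 and 8798 UMIs. The hESC libraries had 1317 barcodes in common and the blastoid libraries 1035, while any hESC and blastoid library had 6 to 14. The copies in hESC 1 held a median of 4.37% of the UMIs of their partners, and those in blastoid 3 held 2.95%. All but 23 of the hESC pairs and all blastoid pairs had at most 1 kept copy, so the comparisons below count the deep copy, and values without every kept cell of a shared barcode are given for the genes they move most.

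Cells were clustered with the 8 genes and 53 further pathway genes left out, and each cluster was named from fixed markers. All hESC cells were pluripotent-like. Of the blastoid cells, 3.34% in blastoid 3 (76 cells) and 4.96% in blastoid 4 (95 cells) were pluripotent-like, 77.5% and 60.6% were mesoderm/mesenchyme-like, and 19.0% and 33.8% were trophectoderm/amnion-like. The pluripotent-like class sat in different clusters in the groups: in the hESC samples mostly in clusters 0, 1 and 3, and in the blastoid samples mostly in cluster 10, with 53 and 87 cells. In plain CPM, UMIs per 1000000 UMIs of the same cells, levels of cell classes were set side by side. All 12 pluripotency markers had UMIs in this class in each of the 4 samples, summing to 5063 and 5264 plain CPM in hESC 1 and hESC 2 and to 4735 and 4015 in blastoid 3 and blastoid 4. The 12 markers of mesoderm and mesenchyme summed to 69.3 and 72.6 in the hESC samples and to 291 and 158 in the blastoid pluripotent-like cells, where 11 of 12 had UMIs. The 13 markers of trophectoderm and amnion summed to 173 and 155 against 305 and 307. Their part in the results for this class was not tested.

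In the sums over all kept cells, NODAL and CER1 were higher in the blastoid samples and the other 6 genes were lower. NODAL rose about 4-fold and TDGF1 and LEFTY1 fell by more than a log2 of 3.8. In these sums a smaller share of cells of a type and less RNA per cell cannot be told apart, and the pluripotent-like cells were 100% of the hESC cells against 3.34% and 4.96% of the blastoid cells. All 8 genes were called with edgeR at an adjusted p under 0.05, 2 higher and 6 lower. Among all 16332 genes tested, 49.9% were called, 27.1% as higher and 22.8% as lower, and the median log2 fold change was 0.05 against -2.15 over the 8 genes.

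Values in this comparison are CPM, counts per 1000000 UMIs on library sizes scaled by TMM. The ligand NODAL was at 2.72 and 2.40 CPM in hESC 1 and hESC 2 and at 7.14 and 13.4 CPM in blastoid 3 and blastoid 4. Both blastoid samples lay above both hESC samples, and the log2 fold change was 2.01 ± 0.34 (SE, edgeR adjusted p 0.00266, n = 2 per group). Without the cells of shared barcodes NODAL was at 2.74, 0.42, 7.07 and 1.56 CPM, the groups overlapped, and the log2 fold change of 1.32 was not called (edgeR adjusted p 0.174). That removal took out 78 of the 95 pluripotent-like cells of blastoid 4, whose median depth was 13788 UMIs. It also took TDGF1 in blastoid 4 from 27.99 to 11.4 CPM, GDF3 from 3.77 to 1.21 CPM and LEFTY2 from 0.96 to 0.35 CPM, and LEFTY1 in hESC 2 from 12.5 to 6.74 CPM, and all 4 were still called lower. GDF3 was at 8.33 and 10.9 CPM in the hESC samples and at 2.50 and 3.77 CPM in the blastoid samples. It fell by 1.61 ± 0.27 on the log2 scale (SE, edgeR adjusted p 0.00243).

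The co-receptor TDGF1 was at 331 and 343 CPM in the stem cells and at 19.9 and 27.99 CPM in the blastoids, a log2 fold change of -3.81 ± 0.19 (SE, edgeR adjusted p 1.47e-05). LEFTY1 was at 12.02 and 12.5 CPM against 0.61 and 1.01 CPM, a log2 fold change of -3.90 ± 0.28 (SE, edgeR adjusted p 5.72e-05). Its neighbour LEFTY2 was at 8.09 and 11.6 CPM against 0.92 and 0.96 CPM, a change of -3.39 ± 0.30 (SE, edgeR adjusted p 0.000142). The groups did not overlap for any of these 3 genes.

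The third antagonist went the other way. CER1 was at 0.40 and 0.26 CPM in the stem cells, from 5 and 4 UMIs, and at 3.66 and 1.12 CPM in the blastoids, from 60 and 20 UMIs. Its log2 fold change was 2.84 ± 0.71 (SE, edgeR adjusted p 0.0137), and the adjusted p was 0.0568 without hESC 2. Without the cells of shared barcodes CER1 was not among the genes tested. The transcription factor FOXH1 was at 62.1 and 57.0 CPM against 7.75 and 10.6 CPM, a change of -2.69 ± 0.18 (SE, edgeR adjusted p 4.65e-05). SKIL was at 188 and 185 CPM against 73.8 and 62.1 CPM, a change of -1.45 ± 0.14 (SE, edgeR adjusted p 0.000196).

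The second comparison was made within the pluripotent-like cells. There NODAL stood about 72-fold above the stem cell level, GDF3 about 4.9-fold and SKIL about 1.4-fold, while TDGF1, LEFTY1, LEFTY2 and FOXH1 were not called and CER1 had no UMI in the blastoid cells of the class. With edgeR 3 of the 7 genes tested were called, all higher, and 20.6% of the 14004 genes tested were called, 10.9% as higher and 9.73% as lower. The median log2 fold change was -0.00 over the 7 genes and -0.03 over all genes. This comparison uses the same hESC cells as the one above, and its blastoid sums were smaller, with 550759 and 1159716 UMIs.

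**Figure D1:**
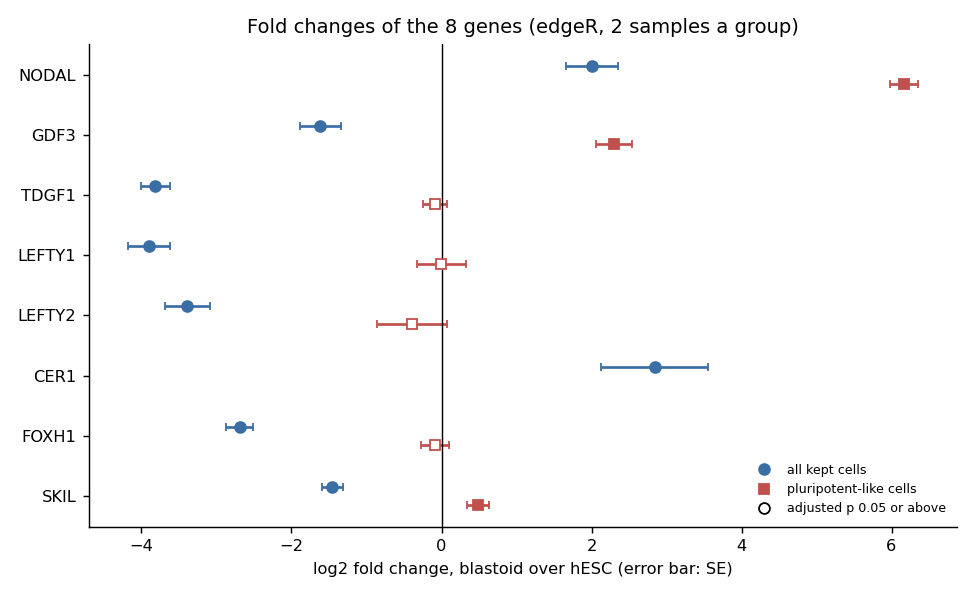
Log2 fold change of blastoid over hESC for each of the 8 genes (x axis, error bars are the SE of the edgeR fit) in all kept cells (circles) and in pluripotent-like cells (squares), where open symbols have an adjusted p of 0.05 or above. GDF3 and SKIL lie below 0 in all kept cells and above 0 in pluripotent-like cells, and CER1 has no square because it was not tested in that class.

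NODAL was at 2.70 and 2.36 CPM in the hESC samples and at 170 and 190 CPM in the pluripotent-like cells of blastoid 3 and blastoid 4. Its log2 fold change was 6.16 ± 0.19 (SE, edgeR adjusted p 3.92e-14, n = 2 per group), and over the alternatives run it ranged from 5.46 to 6.25. Without shared barcodes the 4 values were 2.83, 0.43, 173 and 80.9 CPM, the last from 17 cells. GDF3 was at 8.27 and 10.7 CPM against 44.1 and 48.8 CPM, a log2 fold change of 2.30 ± 0.24 (SE, edgeR adjusted p 1.44e-06). The 2 ligands were thus higher in both blastoid samples than in either stem cell sample.

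SKIL was at 186 and 182 CPM in the hESC samples and at 244 and 268 CPM in the blastoid pluripotent-like cells. Its log2 fold change of 0.48 ± 0.15 (SE, edgeR adjusted p 0.0248) was not called in 6 of 12 alternatives, where the adjusted p ran up to 0.678. Leaving out hESC 1, hESC 2 or blastoid 4 ended the call. TDGF1 was at 329 and 337 CPM against 276 and 344 CPM, and FOXH1 at 61.6 and 56.1 CPM against 44.1 and 61.9 CPM. For both the groups overlapped, with log2 fold changes of -0.09 ± 0.16 (SE, edgeR adjusted p 0.736) and -0.09 ± 0.19 (SE, edgeR adjusted p 0.781). When doublet calls were kept, the class grew to 157 and 130 blastoid cells and TDGF1 was called lower, at -0.66 (edgeR adjusted p 0.0351).

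Neither feedback inhibitor was called. LEFTY1 was at 11.9 and 12.3 CPM in the stem cells and at 13.6 and 11.3 CPM in the blastoid pluripotent-like cells, a log2 fold change of -0.00 ± 0.33 (SE, edgeR adjusted p 0.997). LEFTY2 was at 8.03 and 11.4 CPM against 3.39 and 9.59 CPM, a change of -0.40 ± 0.47 (SE, edgeR adjusted p 0.587). The blastoid values rest on 8 and 13 UMIs of LEFTY1 and on 2 and 11 UMIs of LEFTY2, so a p that misses the threshold does not show equal levels. Without shared barcodes LEFTY1 was at 12.3, 6.96, 13.8 and 46.3 CPM in the order of the samples, the last from 17 cells, so the groups no longer overlapped, and the log2 fold change of 0.79 was not called (edgeR adjusted p 0.333). CER1 had 5 and 4 UMIs in the hESC samples and 0 in the 76 and 95 blastoid cells, where 3 UMIs would be 5.45 and 2.59 plain CPM.

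The origin of the blastoid transcripts was read from UMIs counted by class, in plain CPM, without TMM. Of the NODAL UMIs, 85.5% in blastoid 3 (100 of 117) and 91.2% in blastoid 4 (218 of 239) were in pluripotent-like cells. That class held 63.4% and 83.6% of the GDF3 UMIs, 50% and 79.1% of the TDGF1 UMIs, and 8 of 10 and 13 of 18 LEFTY1 UMIs. It held 2 of 15 and 11 of 17 LEFTY2 UMIs, and in blastoid 3 a single mesoderm/mesenchyme-like cell held 9 of the 15. No CER1 UMI of either blastoid sample was outside the mesoderm/mesenchyme-like class.

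NODAL was at 182 and 188 plain CPM in the pluripotent-like cells of blastoid 3 and blastoid 4, at 1.29 and 1.48 in the mesoderm/mesenchyme-like cells and at 0.68 and 0.96 in the trophectoderm/amnion-like cells. The last 2 classes rested on 15, 15, 2 and 6 UMIs, and their values did not overlap. Cells with a NODAL UMI made up 44.7% (exact 95% interval 33.3% to 56.6%) and 78.9% (69.4% to 86.6%) of the pluripotent-like cells, with median depths of 7629 and 12624 UMIs. In the other large classes, of median depths 6191 to 9119 UMIs, 0.46% to 0.93% of cells had one, and 1.47% and 1.102% did in hESC 1 and hESC 2. After every cell was thinned to 2000 UMIs, the NODAL share was 0.44% ± 0.17 (SD, n = 2) in the stem cells and 21.5% ± 4.19 (SD, n = 2) in the blastoid pluripotent-like cells, from 54 and 90 cells deep enough. The exact two-sided permutation p was 0.33, the smallest that 2 samples against 2 allow.

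The other thinned shares in pluripotent-like cells could again not reach a p below 0.33. GDF3 went from 1.71% ± 0.54 (SD, n = 2) of stem cells to 9.07% ± 0.26 (SD, n = 2), and SKIL from 27.8% ± 0.08 to 40.2% ± 3.40. LEFTY1 was detected in 2.07% ± 0.10 (SD, n = 2) of stem cells and 2.41% ± 1.83 of blastoid pluripotent-like cells, and LEFTY2 in 1.60% ± 0.62 and 1.11% ± 1.57, with groups that overlapped. TDGF1 went from 45.5% ± 2.67 (SD, n = 2) to 38.7% ± 4.98 and FOXH1 from 10.7% ± 0.20 to 8.52% ± 1.05, without overlap, although their levels overlapped. The FOXH1 order turned when cells were thinned to 1000 UMIs, with 5.90% ± 0.37 (SD, n = 2) against 8.69% ± 1.25. Shares of 6 of the 8 genes did not overlap between groups, 3 higher and 3 lower, and over all 19157 genes with a UMI 17.2% were higher and 35.4% lower in this way. The third lower gene was CER1, at 0.08% of stem cells and in none of the 54 and 90 blastoid cells. So few cells cannot show a fall from so low a share, and the CER1 groups overlapped at 1000 UMIs. In all kept cells the shares of 7 genes did not overlap, NODAL higher and 6 lower, against 36.9% higher and 23.9% lower over 21951 genes. The CER1 shares overlapped there, and those of NODAL did too when cells were thinned to 1000 UMIs.

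**Figure D2:**
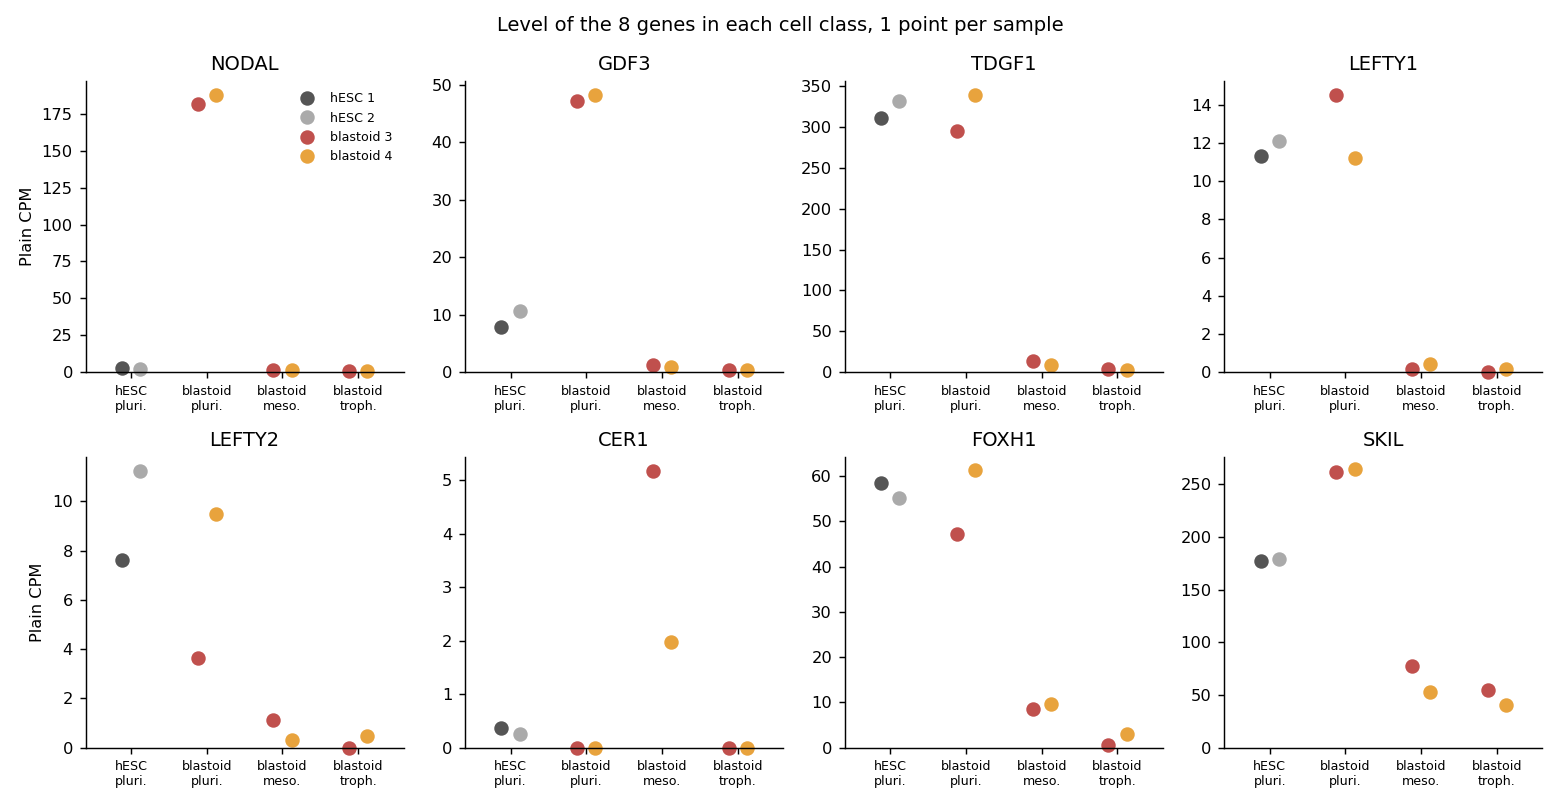
Plain CPM (y axis, linear, its own range for each gene) in hESC pluripotent-like cells and in the pluripotent-like, mesoderm/mesenchyme-like and trophectoderm/amnion-like cells of the blastoids, 1 point per sample. NODAL, GDF3 and SKIL are highest in the blastoid pluripotent-like cells, TDGF1, FOXH1 and LEFTY1 have points there that overlap those of the stem cells, and CER1 is highest in the mesoderm/mesenchyme-like cells.

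Levels in the other classes were low, and free RNA can give UMIs in cells that do not express a gene. In the barcodes of blastoid 3 with under 500 genes, TDGF1 was at 46.2 plain CPM, NODAL at 26.4, and FOXH1 at 17.6, above these genes' levels in both other large classes of that sample. Blastoid 3 had 1198 such barcodes, and none of its 1035 barcodes shared with blastoid 4 was kept. Most of the 1198 were therefore also barcodes of blastoid 4, so these values do not measure free RNA of blastoid 3 alone. Whether their UMIs came from blastoid 4 cells was not tested. The part of free RNA in the low levels was not tested, so the values that follow describe UMIs found and not expression. GDF3, with 47.2 and 48.3 plain CPM in the blastoid pluripotent-like cells and 7.85 and 10.6 in the stem cells, was at 0.32 to 1.21 in both other large classes. TDGF1 was at 13.0 and 8.39 in mesoderm/mesenchyme-like cells and at 4.09 and 3.03 in trophectoderm/amnion-like cells, and these 2 classes did not overlap. FOXH1 showed the same order, with 8.54 and 9.68 against 0.68 and 3.03. SKIL, the broadest of the 8, was at 77.8 and 52.7 in mesoderm/mesenchyme-like cells and 54.8 and 40.7 in trophectoderm/amnion-like cells, which overlapped. LEFTY1 and LEFTY2 had at most 4 UMIs in either of the other large classes of a sample, apart from 13 LEFTY2 UMIs in the mesoderm/mesenchyme-like cells of blastoid 3. The endothelial-like class had 5 and 12 cells and gave no NODAL, LEFTY1, LEFTY2, TDGF1 or CER1 UMI.

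Among the mesoderm/mesenchyme-like clusters, cluster 8 stood apart. Its leading genes include MESP1 and MSGN1, transcription factors of early mesoderm, and it held 296 cells of blastoid 3 and 54 of blastoid 4. NODAL was there at 5.04 and 15.6 plain CPM, TDGF1 at 34.8 and 53.8, and FOXH1 at 22.9 and 41.6. These were the highest values of the 3 genes in any mesoderm/mesenchyme-like cluster of 40 or more cells, in both samples. The NODAL values rest on few UMIs. The whole mesoderm/mesenchyme-like class had 15 NODAL UMIs in 12 cells of blastoid 3 and 15 in 8 cells of blastoid 4, where 1 cell held 6. CER1 was at 24.3 in cluster 8 in blastoid 3, with 53 of the sample's 60 UMIs, but at 0 in blastoid 4. There 16 of 20 UMIs fell in cluster 5, and 14 of them in a single cell, so the blastoid samples did not share the cluster that holds CER1. In blastoid 3 the most CER1-rich cell had 18 UMIs, and 19 cells had any. Cluster 6, led by CXCL14 and POSTN, a matrix gene of stromal cells, had TDGF1 at 21.7 and 29.7, while TDGF1 was at 0 to 5.12 in clusters 4, 5 and 9.

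**Figure D3:**
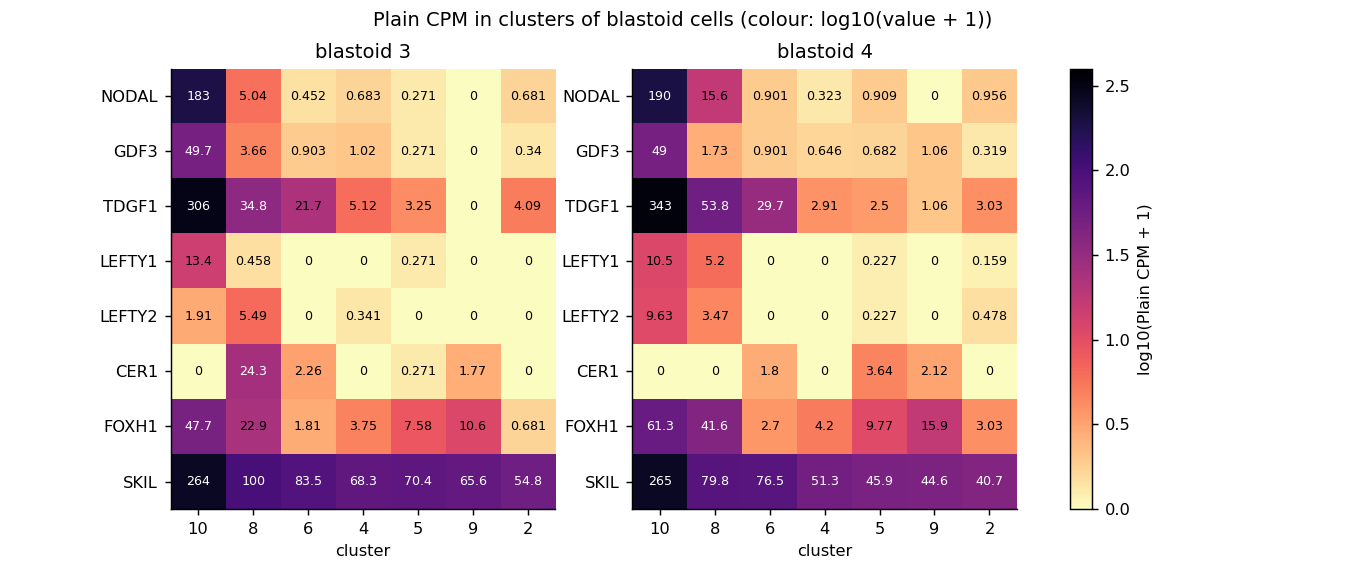
Plain CPM of the 8 genes (rows) in 7 clusters (columns) of blastoid 3 and blastoid 4, printed in each cell and coloured by log10 of the value plus 1. Cluster 10 is pluripotent-like, clusters 8, 6, 4, 5 and 9 are mesoderm/mesenchyme-like and cluster 2 is trophectoderm/amnion-like. NODAL reaches 183 and 190 in cluster 10 and 5.04 and 15.6 in cluster 8, and stays under 1 in the other clusters.

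The levels also varied among stem cell clusters. In cluster 0, the deepest and largest, LEFTY1 was at 12.7 and 14.5 plain CPM in hESC 1 and hESC 2 and NODAL at 2.97 and 2.84. In cluster 1, LEFTY1 was at 5.08 and 4.37 and NODAL at 0.85 and 1.01. Both genes were lower in cluster 1 in both samples, while TDGF1, at 310 and 333 in cluster 0 and 317 and 333 in cluster 1, was not. NODAL had only 34 and 37 UMIs in all of hESC 1 and hESC 2, and few of them in cluster 1. The NODAL values of cluster 1 are therefore too sparse to show a difference between the clusters. These are descriptions of clusters, with no test.

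Whether the genes were detected in the same cells was asked by counting cells with UMIs of both genes of a pair and dividing by the number expected if the 2 were independent. In cells thinned to 2000 UMIs, 9 of 28 pairs were expected in at least 5 cells of each hESC sample. Of these, LEFTY1 with SKIL had the highest ratios, 1.80 and 1.30, followed by LEFTY2 with SKIL at 1.72 and 1.12, GDF3 with SKIL at 1.05 and 1.02, TDGF1 with SKIL at 0.97 and 1.00 and TDGF1 with FOXH1 at 1.08 and 0.90. TDGF1 with LEFTY2 had the lowest, 0.98 and 0.61, then TDGF1 with LEFTY1 at 0.89 and 0.85, GDF3 with TDGF1 at 0.86 and 0.92 and FOXH1 with SKIL at 0.96 and 0.96. TDGF1, detected in 71.1% and 66.0% of stem cells before thinning, was found with the other genes about as often as independence gives, with LEFTY2 in hESC 2 the lowest.

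The rarer genes were expected together in too few thinned cells for that rule, and the pairs that follow were chosen after their values were seen. LEFTY1 and LEFTY2 were both detected in 7 thinned cells of hESC 1 and 7 of hESC 2, where 0.42 and 0.96 were expected. Without thinning, and with the expected number computed within 10 strata of depth, they shared 27 cells of hESC 1 against 5.05 expected and 42 cells of hESC 2 against 9.72, ratios of 5.34 and 4.32. NODAL and LEFTY1 shared 10 cells against 1.95 and 12 against 3.17, ratios of 5.12 and 3.78, and NODAL and LEFTY2 shared 7 against 1.76 and 12 against 3.03. In thinned cells NODAL and LEFTY1 shared 3 cells of hESC 1 and 0 of hESC 2, where 0.20 and 0.15 were expected. NODAL with TDGF1 had depth-matched ratios of 0.91 and 1.01. Without the cells of shared barcodes NODAL in hESC 2 was at 0.42 CPM, against 2.40 CPM with them. Most NODAL UMIs of hESC 2 were therefore in cells of shared barcodes. Co-detection without those cells was not computed.

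Read as shares, LEFTY1 was detected in 10 of the 33 hESC 1 cells with a NODAL UMI (30.3%, exact 95% interval 15.6% to 48.7%) and in 90 of the 2205 without (4.08%, 3.29% to 4.99%). In hESC 2 it was detected in 12 of 35 (34.3%, 19.1% to 52.2%) and in 121 of 3140 (3.85%). Most of those 35 cells had a barcode in common with hESC 1. LEFTY2 was detected in 21.2% and 34.3% of the cells with NODAL and in 3.40% and 3.89% of those without. The cells with NODAL were deeper, with median depths of 7817 and 8813 UMIs against 5737 and 4960. Relative to all UMIs of the same cells, LEFTY1 was at 64.6 and 56.7 plain CPM in hESC cells with 1 NODAL UMI and at 10.2 and 10.9 in cells with none. GDF3 was at 7.60 and 6.68 in cells with 1 NODAL UMI and at 7.85 and 10.6 in cells with none. The values with 1 NODAL UMI rest on 17 LEFTY1 UMIs but only 2 GDF3 UMIs in each sample. So few UMIs cannot show whether GDF3 differed.

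In the blastoid pluripotent-like cells the counts were smaller. NODAL and LEFTY1 shared 4 cells of blastoid 3 against 3.09 expected within 10 strata of depth and 7 cells of blastoid 4 against 7.98, ratios of 1.29 and 0.88. Both lay below the hESC ratios of 5.12 and 3.78. With LEFTY1 detected in only 5 and 10 cells of the class, the blastoid ratios could not have reached those values. The lower ratios therefore do not show a difference in co-detection, and with 2 samples against 2 an exact permutation test cannot go below p = 0.33. In thinned cells the 2 genes shared 2 and 1 cells against 0.37 and 0.24 expected, so the order of the groups was not kept there. LEFTY1 was detected in 11.8% of 34 cells with NODAL and 2.38% of 42 without in blastoid 3, and in 9.33% of 75 and 15.0% of 20 in blastoid 4. The cells without NODAL were shallower, with median depths of 2901.5 and 6712 UMIs. Cells of the class with 2 or more NODAL UMIs had median depths of 11716 and 14832 UMIs. No cell of the class had both LEFTY1 and LEFTY2, where 0.12 and 0.20 were expected. NODAL with GDF3 had ratios of 0.92 and 1.05, and NODAL with TDGF1 1.00 and 1.00.

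**Figure D4:**
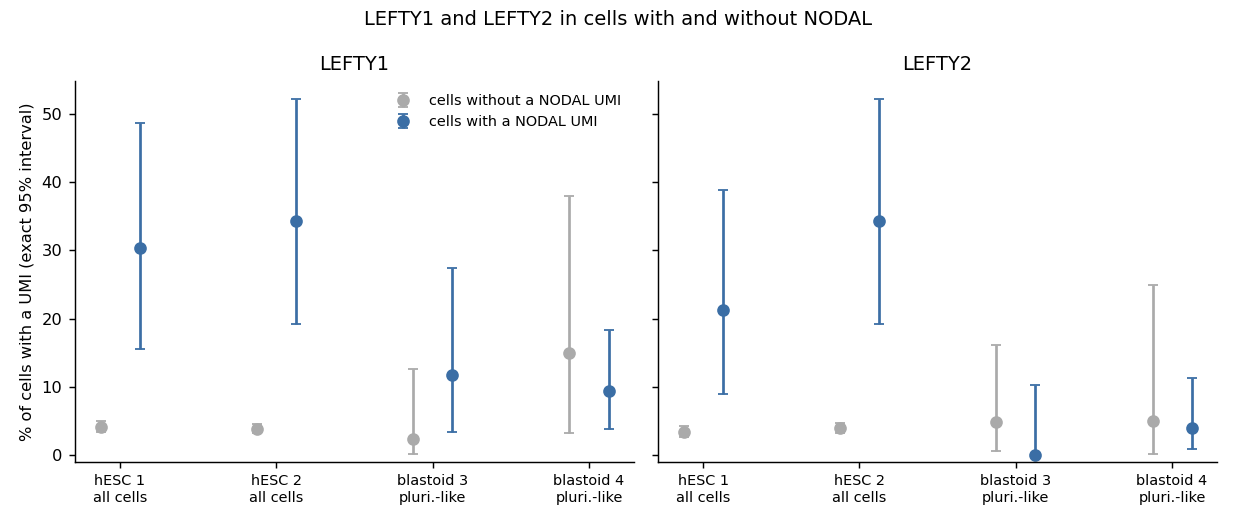
Share of cells with a LEFTY1 UMI (left) or a LEFTY2 UMI (right) among cells with a NODAL UMI (blue) and without one (grey), in all hESC cells and in blastoid pluripotent-like cells, on cells that were not thinned. Cells with a NODAL UMI were deeper than those without in every sample. Bars are exact 95% intervals, which cover counting error only, and they separate the blue and grey points in both hESC samples but overlap in both blastoid samples. Most hESC 2 cells with NODAL have a barcode in common with hESC 1.

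Spread between cells was measured as the variance over the mean of UMIs in thinned cells, which is 1 for counting noise alone. LEFTY2 had 1.24 in hESC 1 and 1.21 in hESC 2, rank 72 in both among 10340 and 10436 genes in at least 1% of cells, where the median was 1.00. At 1000 UMIs LEFTY2 was at 0.99 in hESC 1 and 1.14 in hESC 2, in under 1% of cells of both. LEFTY1 had 1.18 and 1.13, ranks 118 and 176, and 1.23 and 1.101 at 1000 UMIs. SKIL had 1.05 and 1.11, and GDF3 had 0.99 and 1.1. TDGF1 had 1.08 and 1.04 and FOXH1 1.03 and 1.03. The genes most like NODAL over single cells had weak correlations, the highest of each being HSD17B7 with a mean r of 0.10 over 2 samples, and for LEFTY1 and LEFTY2 MRPL12 and SNX27 with 0.08 and 0.07. In counts this sparse no likeness was read from them.

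Other genes of the pathway were taken from a list of 53, of which 49 were listed in at least 1 table. In pluripotent-like cells 36 were tested and 14 were called with edgeR, 10 higher and 4 lower, beside 10.9% and 9.73% of all genes. The median log2 fold change was -0.15 against -0.03 over all genes. None of the 7 receptors and none of the 4 intracellular transducers tested was called with edgeR or with DESeq2, and 2 receptors (ACVR1B and TGFBR1) and 1 transducer (SMAD3) had an unadjusted edgeR p under 0.05. Without hESC 1 the count of called list genes was 8, and without each of the other samples it was 12 or 13.

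Antagonists and feedback inhibitors other than the LEFTY genes were among the rises in pluripotent-like cells. BAMBI, a pseudoreceptor that blocks TGF-β type I receptors, was at 8.35 and 8.61 CPM in the hESC samples and at 67.8 and 48.8 CPM in the blastoid samples, a log2 fold change of 2.72 ± 0.23 (SE, edgeR adjusted p 8.73e-08). FST (follistatin), which binds activins, was at 20.05 and 14.6 CPM against 67.8 and 90.7 CPM, a change of 2.25 ± 0.21 (SE, edgeR adjusted p 3.44e-07). SMAD7, the inhibitory SMAD, was at 15.9 and 13.4 CPM against 57.7 and 29.6 CPM, a change of 1.45 ± 0.27 (SE, edgeR adjusted p 0.000853). The groups did not overlap for any of the 3 genes. Over all kept blastoid cells BAMBI was higher still, at 260 and 316 CPM, and SMAD7 was at 47.7 and 32.6 CPM. The part of free RNA from other classes in the pluripotent-like levels was not tested. Of the 3 secreted antagonists tested in the pluripotent-like cells, only FST was called. PMEPA1, a membrane inhibitor that binds SMAD2 and SMAD3, changed by 0.81 ± 0.25 (SE, edgeR adjusted p 0.0267) and was not called in 4 of 12 alternatives, among them without hESC 1 and without blastoid 3. The corepressors DRAP1, which binds FOXH1, and TGIF1, which binds SMAD2, fell by 0.81 ± 0.17 and 0.73 ± 0.18 on the log2 scale (SE, edgeR adjusted p 0.00265 and 0.00716), and neither fall was called without hESC 1. Of the 12 intracellular inhibitors tested, 3 rose, 2 fell and 7 were not called.

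FURIN, a convertase that cleaves ligand precursors, was at 8.35 and 8.17 CPM against 22.0 and 35.8 CPM, a log2 fold change of 1.90 ± 0.28 (SE, edgeR adjusted p 6.96e-05) that was not called without shared barcodes. Among the target genes, NANOG, a pluripotency factor, was at 90.0 and 93.7 CPM against 146 and 157 CPM. Its log2 fold change of 0.73 ± 0.15 (SE, edgeR adjusted p 0.00164) was not called in 5 of 12 alternatives, among them without hESC 1 and without hESC 2. OTX2, a homeobox gene of epiblast and anterior neural tissue, was at 25.4 and 26.9 CPM in the hESC samples, and none of its UMIs was found in the blastoid pluripotent-like cells. Against a floor of 3 UMIs over the group, OTX2 was at least 15.2-fold lower there. INHBE, which encodes an activin subunit, also had no UMI in those cells and 284 in the hESC samples, at least 5.82-fold lower by the same floor, and INHBE was not called without hESC 1.

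Target genes of the primitive streak were below the level set for naming and were picked after their values were seen. MIXL1, a homeobox gene of mesendoderm, was at 2.23 and 2.17 CPM in the hESC samples and at 57.7 and 32.3 CPM in the blastoid pluripotent-like cells, a log2 fold change of 4.23 ± 0.32 (SE, edgeR adjusted p 2.52e-08). TBXT (brachyury), a transcription factor of nascent mesoderm, was in neither hESC table and at 23.7 and 34.9 CPM in the blastoid pluripotent-like cells, from 14 and 40 UMIs. In the mesoderm/mesenchyme-like cells TBXT was at 5.01 and 2.47 plain CPM and MIXL1 at 17.0 and 8.99. These are averages over all clusters of that class. In the clustering at resolution 1.0, MIXL1 was among the leading genes of a mesoderm/mesenchyme-like cluster with 147 cells of blastoid 3 and 31 of blastoid 4. EOMES, another early mesendoderm factor, was in neither hESC table and had 7 and 5 UMIs in the pluripotent-like cells. The same cells were those with the higher summed mesoderm and mesenchyme markers given above.

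**Figure D5:**
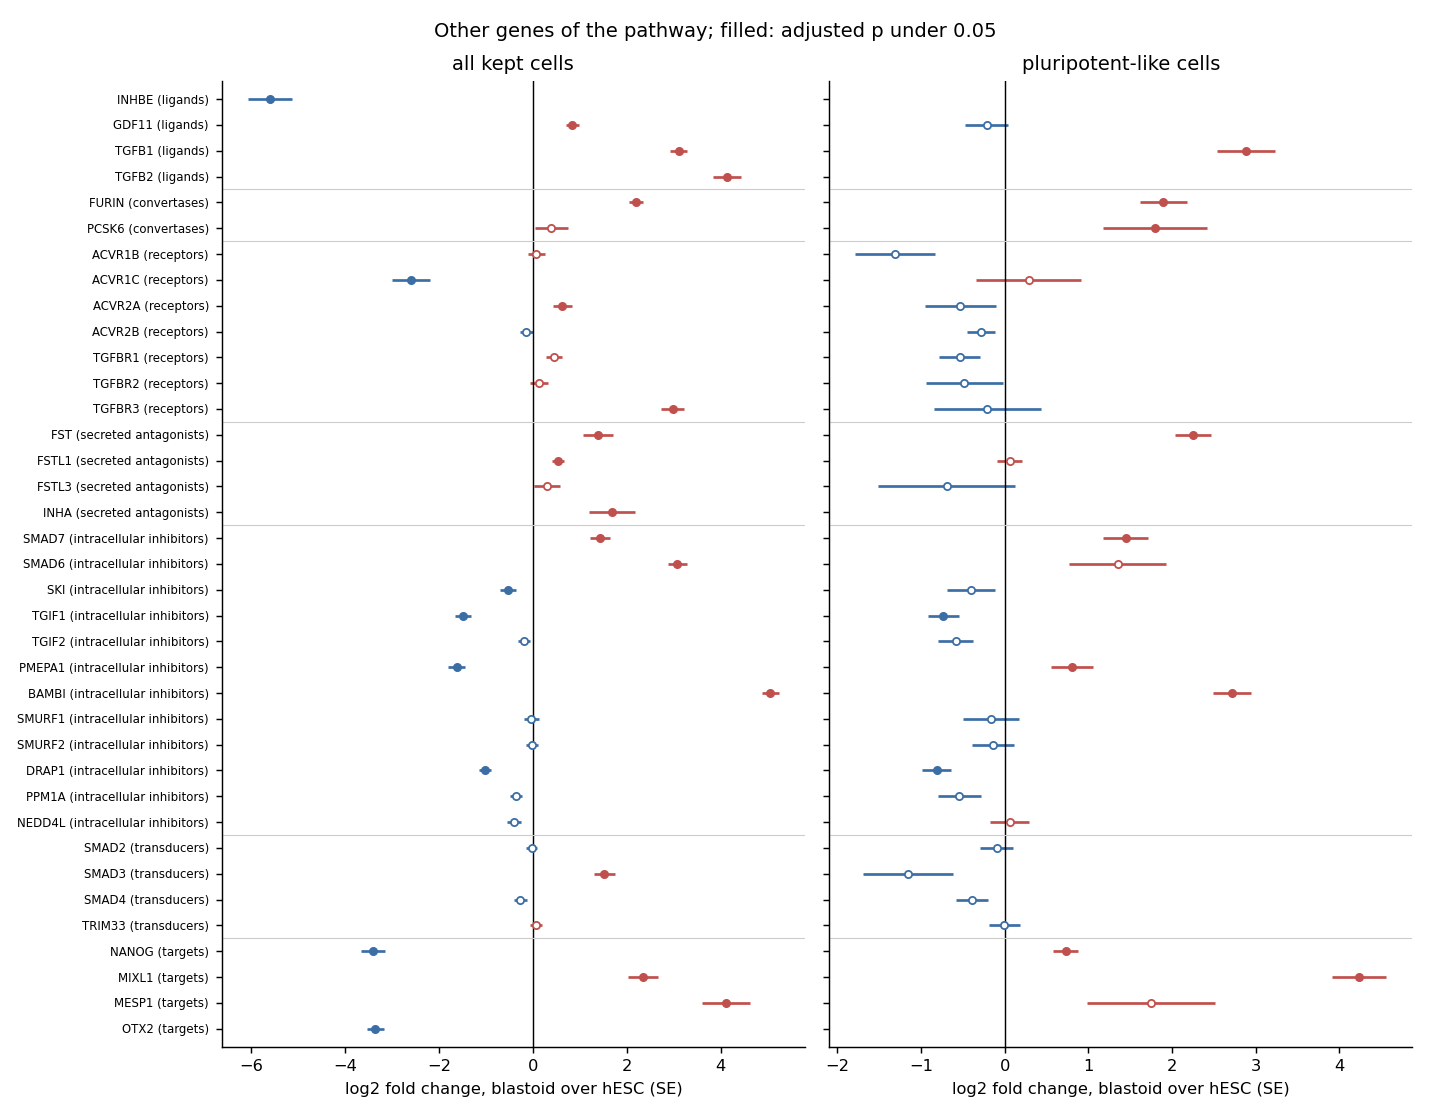
Log2 fold change of blastoid over hESC (x axis, each panel with its own range, error bars are the SE of the edgeR fit) for the tested pathway genes by role, in all kept cells (left) and in pluripotent-like cells (right), with filled points called at an adjusted p under 0.05. Genes at 0 in an hESC sample or in both blastoid samples have no point, and those with a point in neither panel are left out. In pluripotent-like cells the receptors and transducers have no filled point, while BAMBI and FST lie above 2.

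Over all kept cells, 43 list genes were tested, 21 were higher and 8 lower by edgeR, beside 27.1% and 22.8% of all genes, and the list's median log2 fold change was 0.46 against 0.05. These sums mix classes, as for the 8 genes. All 5 ligands tested were called, 4 higher and 1 lower (INHBE). TGFB1, which encodes TGF-β1, was at 2.80 and 3.37 CPM in the hESC samples and at 25.9 and 27.9 CPM in the blastoids, a log2 fold change of 3.11 ± 0.18 (SE, edgeR adjusted p 2.5e-05). The co-receptor TGFBR3 (betaglycan) was at 3.53 and 3.24 CPM against 31.9 and 21.6 CPM, a change of 2.98 ± 0.24 (SE, edgeR adjusted p 0.000102). CFC1, a relative of TDGF1 that can also serve NODAL as co-receptor, was in neither hESC table and had 4.27 and 1.69 CPM in the blastoids, mostly in mesoderm/mesenchyme-like cells (70 and 28 UMIs). INHBA, which encodes an activin subunit, was in neither hESC table and had 16 and 60 UMIs in the trophectoderm/amnion-like cells.

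Intracellular inhibitors split over all kept cells, with 3 rises, 4 falls and 5 genes not called. BAMBI was at 8.41 and 8.76 CPM against 260 and 316 CPM, a log2 fold change of 5.06 ± 0.17 (SE, edgeR adjusted p 4.98e-06), and SMAD6, an inhibitory SMAD, rose by 3.08 ± 0.20 (SE, edgeR adjusted p 4.12e-05). PMEPA1, TGIF1, DRAP1 and SKI, a relative of SKIL, fell by 1.63, 1.49, 1.02 and 0.53 on the log2 scale (edgeR adjusted p 0.000336, 0.000416, 0.000525 and 0.0293), and the fall of SKI was not called in 4 of 11 alternatives, among them without either hESC sample. All 8 targets tested were called, with MESP1 at 0.96 and 1.103 CPM against 25.9 and 10.46 CPM (log2 fold change 4.12 ± 0.51 SE, edgeR adjusted p 0.000649). NANOG and OTX2 fell by 3.42 and 3.36 on the log2 scale (edgeR adjusted p 6.59e-05 and 1.56e-05). NANOG and PMEPA1 were thus lower over all kept cells and higher in the pluripotent-like cells, as were GDF3 and SKIL, and DRAP1, TGIF1 and OTX2 were lower in both.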

How the data were processed

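The authors deposited 1 table of UMI counts per sample, genes by cell barcodes. Per the submitters' processing notes Cell Ranger and the GRCh38 build were used; versions, annotation and strand setting are not given in the sources used here. The deposited barcodes had 201 to 4994 genes and at most 20% mitochondrial UMIs, as the tables show. Barcodes with at least 500 genes were kept, and doublets were called with Scrublet in scanpy 1.11.5 (expected rate 6%, 73 calls, 0.75%, none in hESC 2) and removed. Cells were clustered by Leiden at resolution 0.5 on 2000 variable genes and 30 components. Clusters took the name of the class with the most markers, with at least 3 in 10% of cells, so names were rebuilt here. UMIs were summed per sample over all kept cells or pluripotent-like cells. Genes that a table does not list were set to 0. The sums (13255214 to 17679447 UMIs over all kept cells) were tested with edgeR 4.0.16 (quasi-likelihood test, TMM, filterByExpr, Benjamini-Hochberg over all genes, called at an adjusted p under 0.05). DESeq2 1.42.0, other scaling, filters, cell sets and clusterings were alternatives, and the test was tried on simulated data. Shares, co-detection and spread used cells thinned to 2000 UMIs, and single values an exact permutation test. Intervals are exact binomial at 95% and cover counting error only. Pathway genes named reached 3 in mean log2 CPM and were the up to 6 largest called rises and falls; co-detection named the 5 highest and 5 lowest pairs expected in at least 5 cells of each hESC sample. The 8 genes, the lists and the tests were chosen with earlier results of these data known. One pathway gene that the naming rule picks is not reported here.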

Additional observations from a re-analysis of the deposited data

How the results depend on the processing

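Over all kept cells, 6 to 8 of the 8 genes and 24 to 32 of the listed pathway genes were called in each alternative run. In pluripotent-like cells 2 or 3 of the 8 genes were called. Leaving out 1 sample at a time gave 7 to 8 and 25 to 31 calls over all kept cells, and 2 to 3 and 8 to 13 calls in pluripotent-like cells, where the pathway count was 14 with all samples and 8 without hESC 1, in a fit on fewer samples. No called change of the 8 genes reversed its direction. Among those not called in pluripotent-like cells, the log2 fold change ran from -0.66 to 0.04 for TDGF1, from -0.46 to 0.07 for FOXH1 and from -0.54 to 0.79 for LEFTY1. NODAL kept its call in pluripotent-like cells in all alternatives, and GDF3 did too, with log2 fold changes from 1.67 to 2.50. Of all 28 pairs, whatever their expected number, 7 were detected together more often than independence gives in both hESC samples. The number was 3 when cells were thinned to 1000 UMIs. It was 11 without thinning, within 10 strata of depth, an alternative chosen after seeing the data. Independent pairs can also exceed their expected number in both samples. No share over other gene pairs was computed, so these counts alone do not show co-detection. The number of genes with a variance over mean above 1.1 in both hESC samples was 2 (LEFTY1 and LEFTY2), and 1 at 1000 UMIs, where LEFTY2 was lost. The cause of these changes was not tested. No paired analysis was possible because the 2 groups share no replicate number. The 76 and 95 blastoid pluripotent-like cells held few UMIs of LEFTY1 and LEFTY2 and none of CER1, which limits these values.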
